A study of Mus musculus with 4 samples.

Results

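The prostaglandin genes described here are the cyclooxygenases Ptgs1 and Ptgs2, the terminal synthases Ptgds and Ptges, the prostaglandin E2 receptor genes Ptger1, Ptger3 and Ptger4, and the breakdown enzyme gene Hpgd. They were chosen by gene symbol, and all 8 were present among the 32285 genes counted. The data are Visium spatial transcriptomes, in which barcoded spots under a tissue section capture polyadenylated RNA and a unique molecular identifier (UMI) lets every molecule be counted once. Left kidneys came from wild type male C57BL/6J mice aged 7 to 8 weeks. The 2 normal sections came from kidneys without ischemia, and the 2 ischemic sections came from mice whose kidneys were clamped on both sides for 30 min and collected 24 h later. All 4 sections were 10 µm thick and lay on 1 slide. The study describes technical replicates of each mouse, and which mouse a section came from is not stated there, so p-values measure the spread between sections, which may be technical.

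Prostaglandins are lipid signals made from arachidonic acid, which phospholipases release from membranes. The cyclooxygenases turn it into prostaglandin H2, terminal synthases turn that into prostaglandin E2, prostaglandin D2 and the other prostanoids, and 15-hydroxyprostaglandin dehydrogenase, the product of Hpgd, inactivates them after uptake by the transporter Slco2a1. In the kidney prostaglandin E2 adjusts blood flow and the handling of salt and water, acting through receptors that differ along the nephron, and the collecting duct and the cells between the medullary tubules are known sites of its synthesis.

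Depth ranged from 25957128 to 44528078 UMIs per section over 10312 tissue spots in all, and the sections contained 2401 to 2682 spots. Values are CPM, UMI counts relative to the section's or zone's total, scaled by edgeR's TMM factors, and differences between groups are log2 differences with a standard error from edgeR's quasi-likelihood fit. The adjusted p is Benjamini-Hochberg adjusted over all genes tested, with a threshold of 0.05. The injury genes Havcr1 and Lcn2 followed the labels, with log2 differences of 9.64 and 8.78 in ischemic sections. Of 15305 genes tested in whole sections, 60.6% differed between the conditions, and the TMM CPM of 82.2% did not overlap between them, so a difference in a single gene is common in these sections. In bulk sums such as these, fewer cells of a type and less RNA per cell cannot be told apart.

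Across whole sections 6 of the 8 genes passed the test. Ptgs2 and Ptger4 were higher in ischemic sections, in a comparison where 31% of all genes were called higher. Ptgds, Ptger1, Ptger3 and Hpgd were lower, where 29.7% of all genes were called lower. Ptgs1 and Ptges did not pass. The median log2 difference of all genes tested was 0.04 and the median size was 0.54.

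**Figure D1:**
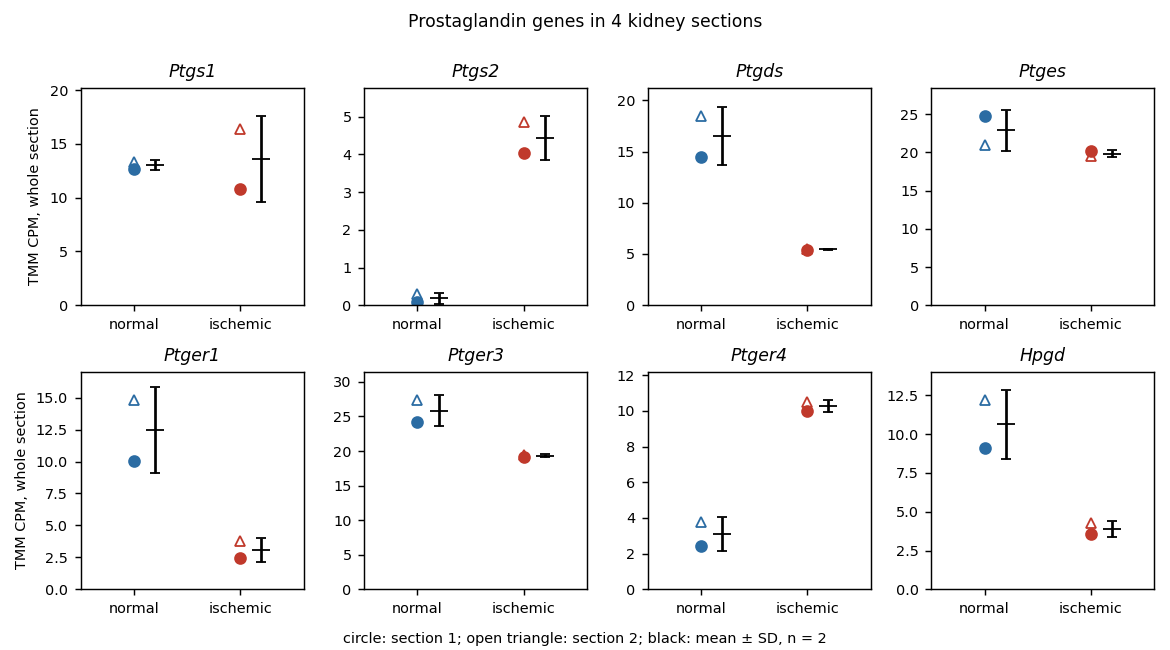
TMM CPM of each prostaglandin gene (y axis, from 0) in the normal and ischemic sections (x axis). Circles are section 1 and open triangles section 2 of each condition, and black marks show the mean and SD of 2 sections. Ptgs2 reaches 4.03 and 4.85 CPM in the ischemic sections against 0.0813 and 0.290 in the normal sections, whereas the Ptgs1 values of the normal sections lie between those of the ischemic sections.

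The sequences just upstream of the transcription start are shown for the genes that rose, Ptgs2 and Ptger4, and for Ptgs1, the cyclooxygenase that did not pass the test. Each covers 250 bases before the start on the GRCm38.p6 build, from RefSeq, and 7 of the 8 genes had an entry. Ptgs2 lies at chr1:150099781-150100030 on the plus strand, Ptger4 at chr15:5244188-5244437 on the minus strand and Ptgs1 at chr2:36230176-36230425 on the plus strand. Capitals mark matches, on either strand, to TATAAA (the TATA box), TGACTCA (the AP-1 site), TGACG (the core of a cyclic AMP response element), CCAAT, TTGCGCAA (a palindrome bound by C/EBP factors), GGGCGG (the GC box) and the NF-kB consensus. TTGCGCAA and GGGCGG were added, and the NF-kB pattern changed, after the sequences had been seen.
Ptgs2: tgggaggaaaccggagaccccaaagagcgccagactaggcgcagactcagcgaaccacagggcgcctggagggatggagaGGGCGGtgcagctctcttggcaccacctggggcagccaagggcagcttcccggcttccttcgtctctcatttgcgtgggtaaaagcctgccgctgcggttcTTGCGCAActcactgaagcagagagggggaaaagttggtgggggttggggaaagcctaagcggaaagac
Ptger4: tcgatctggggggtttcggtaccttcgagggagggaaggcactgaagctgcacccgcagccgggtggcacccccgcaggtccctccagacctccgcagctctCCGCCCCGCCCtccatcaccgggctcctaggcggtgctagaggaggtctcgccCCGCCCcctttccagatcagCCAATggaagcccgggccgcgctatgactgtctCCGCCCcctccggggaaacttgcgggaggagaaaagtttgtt
Ptgs1: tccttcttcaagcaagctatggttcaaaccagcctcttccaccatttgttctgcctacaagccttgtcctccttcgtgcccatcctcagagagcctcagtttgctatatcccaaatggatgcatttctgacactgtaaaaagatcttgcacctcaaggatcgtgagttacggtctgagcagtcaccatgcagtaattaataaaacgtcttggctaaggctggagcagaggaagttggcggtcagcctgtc

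The genes themselves are protein coding and annotated (GENCODE, GRCm38) at chr2:36230426-36252272 for Ptgs1, chr1:150100031-150108227 for Ptgs2, chr2:25466709-25470046 for Ptgds, chr2:30889471-30929863 for Ptges, chr3:157566892-157645888 for Ptger3, chr15:5206661-5244187 for Ptger4 and chr8:56294585-56321043 for Hpgd. The Ptgs2 window contained 1 C/EBP palindrome, which began 69 bases before the start, and 1 GC box. That palindrome was present in 0.164% of 32851 windows of the same length. The pattern was added after the sequences had been seen, so its share carries no weight for Ptgs2. The shares were 12.4% for TATAAA, 4.46% for TGACTCA, 17.8% for TGACG and 7.25% for the NF-kB consensus, none of which was found in the 3 windows shown. The Ptger4 window contained 4 GC boxes on the opposite strand and 1 CCAAT box, patterns found in 32.7% and 33.8% of the windows. None of the 7 patterns was found in the Ptgs1 window. These matches describe the letters of the windows and say nothing about binding.

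To place the genes within the kidney, each spot was assigned to a zone from the marker counts of the spot and its neighbours. The cortex holds the glomeruli and convoluted tubules, the outer stripe holds the straight proximal tubules, the inner stripe holds the thick ascending limbs, and the inner medulla holds the terminal collecting ducts. No prostaglandin gene was among the zone markers. Tests of ischemia within zones took the zone sums of a section as independent, which they are not, so their p-values may be too small. The zones of the 2 conditions did not hold the same tissue, least of all the inner medulla, with 5.24% and 9.99% of normal spots but 14.5% and 15.2% of ischemic spots.

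Levels of marker genes and their sums are CPM of the zone's total, without TMM scaling. In the spots assigned to the inner medulla, the summed counts of 6 principal cell genes were 3642 and 4816 CPM in the normal sections and 1166 and 1883 CPM in the ischemic sections. Of the 6, Aqp2, Fxyd4 and Avpr2 were lower in both ischemic sections than in both normal sections, and Aqp3, Scnn1g and Hsd11b2 overlapped. The 6 urothelial genes there came to 923 and 1981 CPM in the normal sections against 7.34 and 47.9 CPM in the ischemic sections, and each of the 6 was lower. The 5 thick ascending limb genes summed to 2507 and 7204 CPM in the normal sections and to 5870 and 5879 CPM in the ischemic sections, of which Umod alone gave 5529 and 5527 CPM, and Slc12a1, Cldn10 and Cldn16 were lower there in both ischemic sections. Markers that assigned the zone went opposite ways within it. Slc14a2, a urea transporter gene, had 118 and 438 CPM in the normal and 860 and 647 CPM in the ischemic inner medulla, with 598 and 537 CPM in the ischemic inner stripe, and its level in whole sections was 6.64-fold higher after ischemia. Akr1b3 went from 1980 and 1168 CPM to 136 and 184 CPM. Spots were ranked within their own section, so the zone need not hold the same tissue in both conditions. The same holds for the pelvis, taken from the top 5% of each section by urothelial genes. These genes summed to 202 and 530 CPM in whole normal sections and to 35.2 and 64.5 CPM in whole ischemic sections. With zones from the spot alone, 66.4% and 63.0% of normal but 28.3% and 28.5% of ischemic pelvis spots kept the zone. This limits each inner medulla and pelvis value below.

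Ptgs1 encodes the constitutive cyclooxygenase. In normal section 1 the cortex had 14.3 CPM, the outer stripe 9.15 CPM, the inner stripe 10.5 CPM and the inner medulla 43.3 CPM. Normal section 2 had 14.1, 7.31, 18.9 and 26.9 CPM in the same order. In the normal sections the inner medulla was higher than the cortex by a log2 difference of 1.23 ± 0.27 (SE, adjusted p = 0.00218, edgeR with the section as a block), and the outer stripe was lower by −0.77 ± 0.24 (adjusted p = 0.0255). Between normal zones and the normal cortex, 22.5% of all genes were called for the outer stripe, 27.7% for the inner stripe and 41.5% for the inner medulla. The inner stripe and the cortex did not differ beyond their spread.

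Ischemia left Ptgs1 without a called difference in whole sections, where the normal sections had 12.7 and 13.4 CPM and the ischemic sections had 10.8 and 16.4 CPM. The log2 difference was 0.06 ± 0.18 (adjusted p = 0.795), and it was −0.26 without ischemic section 2. No zone passed the test, with log2 differences of −0.59 ± 0.30 for the cortex, 0.27 ± 0.33 for the outer stripe, 0.05 ± 0.39 for the inner stripe and −0.39 ± 0.36 for the inner medulla. Without normal section 2 the cortex difference passed, at −0.61 with an adjusted p of 0.0464. Per 1000 counts of the principal cell genes, whole sections had 18.4 and 15.9 Ptgs1 counts when normal and 22.0 and 25.8 when ischemic. By that ratio both ischemic sections lay above both normal sections. Set against each of the 6 genes alone, this held for 4 and overlapped for Aqp3 and Scnn1g, and the part of these genes was not tested.

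Ptgs2 encodes the inducible cyclooxygenase. The normal sections contained 3 and 8 Ptgs2 UMIs and the ischemic sections 137 and 139, which corresponds to 0.0813 and 0.290 CPM against 4.03 and 4.85 CPM. The log2 difference was 4.65 ± 0.51 (adjusted p = 1.29e-05), a 25.2-fold difference that rests on 11 normal counts. Leaving out a section or changing the processing moved it between 2.89 and 5.67, and it passed the test each time.

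Ptgs2 was sparse even after ischemia. At least 1 UMI was found in 5.21% (95% Clopper-Pearson interval 4.35 to 6.17) and 4.71% (3.93 to 5.59) of the ischemic spots, against 0.115% (0.0237 to 0.335) and 0.261% (0.105 to 0.537) of the normal spots. No spot held more than 3 Ptgs2 UMIs. After thinning every spot to 2000 UMIs, the shares were 0.811% and 0.957% in ischemic sections and 0.0389% and 0.118% in normal sections, so the order did not depend on depth. Intervals cover counting error only, as spots are not independent animals.

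The normal Ptgs2 counts all lay outside the cortex and the inner stripe. Against the 3 counts that a total of 0 allows over the pooled normal sections, Ptgs2 was at least 15.2-fold higher in the ischemic cortex (0 normal and 30 ischemic counts) and at least 12.2-fold higher in the ischemic inner stripe (0 and 38 counts). In the outer stripe 1 normal count stood against 132 ischemic counts, a ratio of 181 with a counting interval of 31.9 to 7193. In the inner medulla 5 counts stood against 55, a ratio of 5.12 (2.07 to 16.4), and all 5 came from normal section 2. The pelvis had a ratio of 4.83 (1.77 to 16.4) from 5 and 21 counts.

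Within the ischemic sections, Ptgs2 was lowest in the cortex, at 1.72 and 1.16 CPM. It reached 6.85 and 7.51 CPM in the outer stripe, 3.72 and 5.01 CPM in the inner stripe and 6.79 and 7.86 CPM in the inner medulla. The difference from the cortex, a comparison added after seeing the data, was 2.26 ± 0.40 for the outer stripe (adjusted p = 0.000164), 1.53 ± 0.45 for the inner stripe (adjusted p = 0.00973) and 2.28 ± 0.43 for the inner medulla (adjusted p = 0.000243). Of all genes tested, 36.9%, 46.7% and 49.4% were called in these comparisons. Without ischemic section 2 none of the 3 passed (1.98, adjusted p = 0.0684; 1.10, adjusted p = 0.327; and 1.96, adjusted p = 0.0636), and without ischemic section 1 the inner stripe did not (2.08, adjusted p = 0.0828).

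The outer stripe held 50.4% and 45.3% of the Ptgs2 counts of the ischemic sections, and 34.0% and 33.8% of their UMIs. The inner medulla held 18.2% and 21.6% of the Ptgs2 counts, and 9.66% and 12.1% of the UMIs. Outside the pelvis the neutrophil genes, 5 in all, summed highest in the outer stripe. They had 322 and 329 CPM there against 68.0 and 80.0 CPM in the ischemic cortex. Among the 5% of ischemic spots richest in neutrophil genes, Ptgs2 CPM was 1.80 and 2.70 times that of the other spots, and among those richest in macrophage genes it was 2.74 and 2.01 times that of the others. Smooth muscle rich spots had ratios of 2.15 and 2.44. Such ratios were not particular to these lists. In all 4 sections they were at least 1.25 for endothelial, 1.28 for mesothelial, 1.14 for fibroblast and 1.09 for principal cell genes. They were at most 0.486 for thick ascending limb genes. The ratios of the normal sections rest on few Ptgs2 counts. No Ptgs2 count was found in the 5% of spots richest in proximal tubule genes, in either condition. The part of these cells in the Ptgs2 difference was not tested.

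**Figure D2:**
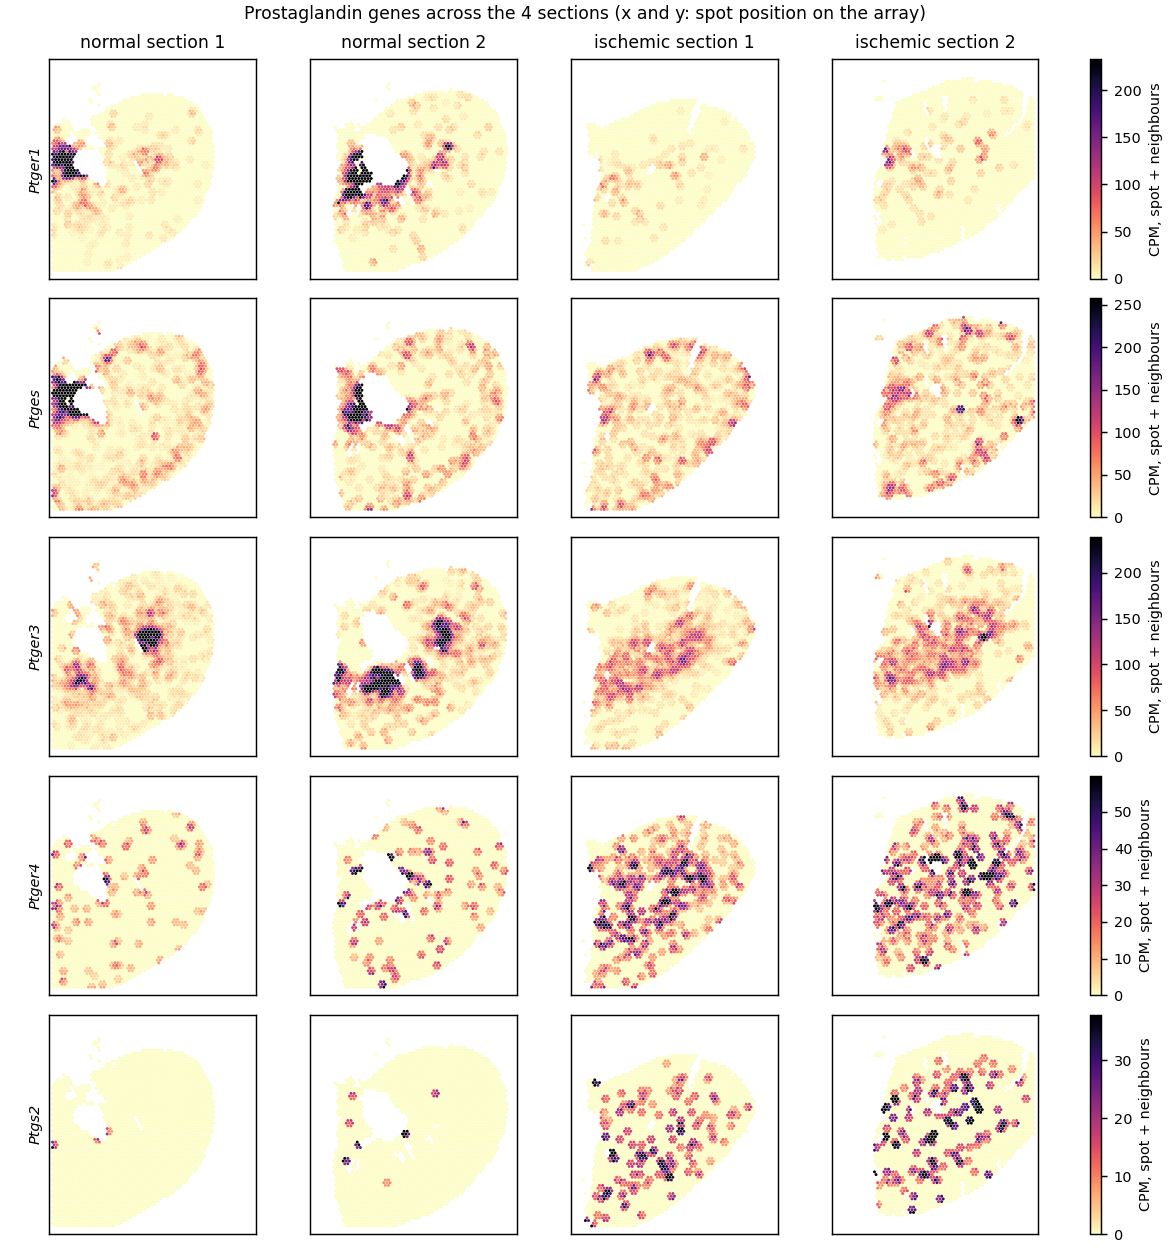
Each dot is a spot at its place on the array (x and y, array position), coloured by the CPM of the spot pooled with its neighbours, with the colour scale of each gene ending at its 99th percentile. Ptger1 and Ptges are concentrated beside the cavity at the left edge of both normal sections, Ptger3 forms patches in the normal sections and a band in the ischemic sections, and Ptger4 and Ptgs2 are scattered through the ischemic sections.

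Ptges encodes the microsomal prostaglandin E synthase that is functionally coupled to Ptgs2. In whole sections it had 24.8 and 21.0 CPM when normal and 20.1 and 19.5 CPM when ischemic, a log2 difference of −0.21 ± 0.11 that did not pass (adjusted p = 0.122). Without normal section 2 the difference was −0.35. With equal weight for the 5 zones it passed (−0.64, adjusted p = 0.00181), in a test that called 67.9% of all genes. That test took the 5 zone sums of a section as independent, which they are not, so its p may be too small.

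In the normal sections Ptges was highest in the inner medulla and the pelvis. The inner medulla had 117 and 48.4 CPM and the cortex 27.3 and 25.3 CPM, a log2 difference of 1.55 ± 0.24 (adjusted p = 6.02e-05) that was 0.82 without normal section 1. The outer stripe was below the cortex by −1.35 ± 0.24 (adjusted p = 0.000337), and the inner stripe by −0.89 ± 0.30 (adjusted p = 0.0303), a call lost without either ischemic section (adjusted p = 0.0755 and 0.0717) and without the section block (adjusted p = 0.127). The cortex thus stood between the inner medulla and the stripes of the outer medulla.

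In the ischemic sections Ptges fell in the inner medulla, to 13.6 and 19.1 CPM, a log2 difference of −2.23 ± 0.37 (adjusted p = 0.000118). It was also lower in the spots assigned to the pelvis, from 131 and 59.4 CPM to 29.2 and 38.2 CPM (−1.47 ± 0.38, adjusted p = 0.00704). There 25.7% of all genes were called, and these spots need not hold the same tissue in both conditions. The cortex, with 33.7 and 31.9 CPM, differed by 0.32 ± 0.27 (adjusted p = 0.382), and the outer stripe and the inner stripe by 0.23 ± 0.34 and −0.07 ± 0.43. The difference between inner medulla and cortex changed with ischemia by −2.55 ± 0.36 (adjusted p = 8.97e-05), in a test that called 14.3% of all genes. With zones from the spot alone, without its neighbours, these values were −1.25 for the fall in the inner medulla and −1.51 for its change against the cortex, and both passed. Without normal section 1 they were −1.51 and −1.81, and both passed. Per 1000 counts of the principal cell genes of the inner medulla, there were 29.9 and 11.9 Ptges counts when normal and 14.3 and 12.3 when ischemic. By that ratio normal section 2 lay below both ischemic sections. Against each of the 6 genes alone, Ptges was lower in both ischemic sections for 3 and overlapped for 3. Spots richest in urothelial genes had 1.64 to 10.6 times the Ptges CPM of the other spots over the 4 sections. The part of these cells in the Ptges fall was not tested.

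Ptgds encodes the lipocalin type prostaglandin D synthase. In the normal inner stripe it had 50.2 and 83.3 CPM, against 9.48 and 5.80 CPM in the cortex. This 7.99-fold difference passed the test (SE 0.26 on the log2 scale, adjusted p = 6.96e-08), and its log2 value was 2.40 without normal section 2 and 3.75 without normal section 1, past the threshold both times. The normal inner medulla had 19.8 and 62.6 CPM, which exceeded the cortex by 2.46 ± 0.31 (adjusted p = 6.87e-06) and by 1.04 without normal section 2 or 3.31 without normal section 1. Spots richest in thick ascending limb genes had 14.6 and 12.6 times the Ptgds CPM of the other spots in the normal sections, and 3.70 and 3.78 times in the ischemic sections.

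Whole section Ptgds was 14.5 and 18.5 CPM in the normal sections and 5.42 and 5.48 CPM in the ischemic sections. The fall of 1.59 on the log2 scale (SE 0.15, adjusted p = 2.08e-05) was a 3.01-fold difference, and the log2 difference was −0.83 without spots near counts of the adipocyte genes (adjusted p = 0.0287). It was present in the outer stripe (12.4 and 13.4 CPM against 2.58 and 2.62), the inner stripe (against 13.8 and 11.9) and the inner medulla (against 7.34 and 6.03), with log2 differences of −2.30 ± 0.41, −2.33 ± 0.32 and −2.76 ± 0.43 and adjusted p of 4.71e-05, 7.40e-06 and 2.95e-05. The inner medulla value was −1.55 without normal section 2. In the cortex, where the ischemic sections had 4.98 and 6.04 CPM, the difference of −0.52 ± 0.34 did not pass (adjusted p = 0.239), although it did without normal section 2 (−0.80, adjusted p = 0.000966).

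The test of the difference itself found a larger Ptgds fall than that of the cortex for the outer stripe (−1.75 ± 0.52, adjusted p = 0.0182), the inner stripe (−1.76 ± 0.44, adjusted p = 0.0104) and the inner medulla (−2.17 ± 0.53, adjusted p = 0.00844). These tests called 21.6%, 15.2% and 14.3% of all genes. None of the 3 passed without ischemic section 1 (adjusted p = 0.220, 0.155 and 0.121) or without ischemic section 2 (adjusted p = 0.261, 0.273 and 0.234). Without normal section 2 the inner stripe value was −1.16 and the inner medulla value was −0.75, which did not pass (adjusted p = 0.247). Without normal section 1 they were −2.51 and −3.0.

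The 5 thick ascending limb genes, Slc12a1, Umod, Cldn10, Cldn16 and Kcnj1, fell too, each of them past the threshold, with a median log2 difference of −1.48 in whole sections. Umod made up 75.8% to 91.4% of their counts and fell least (−0.51), whereas Slc12a1 fell most (−3.23). The order of Ptgds against these genes therefore depended on the gene. Per 1000 Umod counts, Ptgds went from 3.92 and 5.34 counts to 2.17 and 2.16, and per 1000 Slc12a1 counts it went the other way, from 33.8 and 35.2 to 108 and 107. The ratio to Kcnj1 was lower in both ischemic sections than in both normal sections, and those to Cldn10 and Cldn16 overlapped. Within the inner stripe the ratios to Umod and Kcnj1 were again lower, that to Slc12a1 higher, and those to Cldn10 and Cldn16 overlapped.

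**Figure D3:**
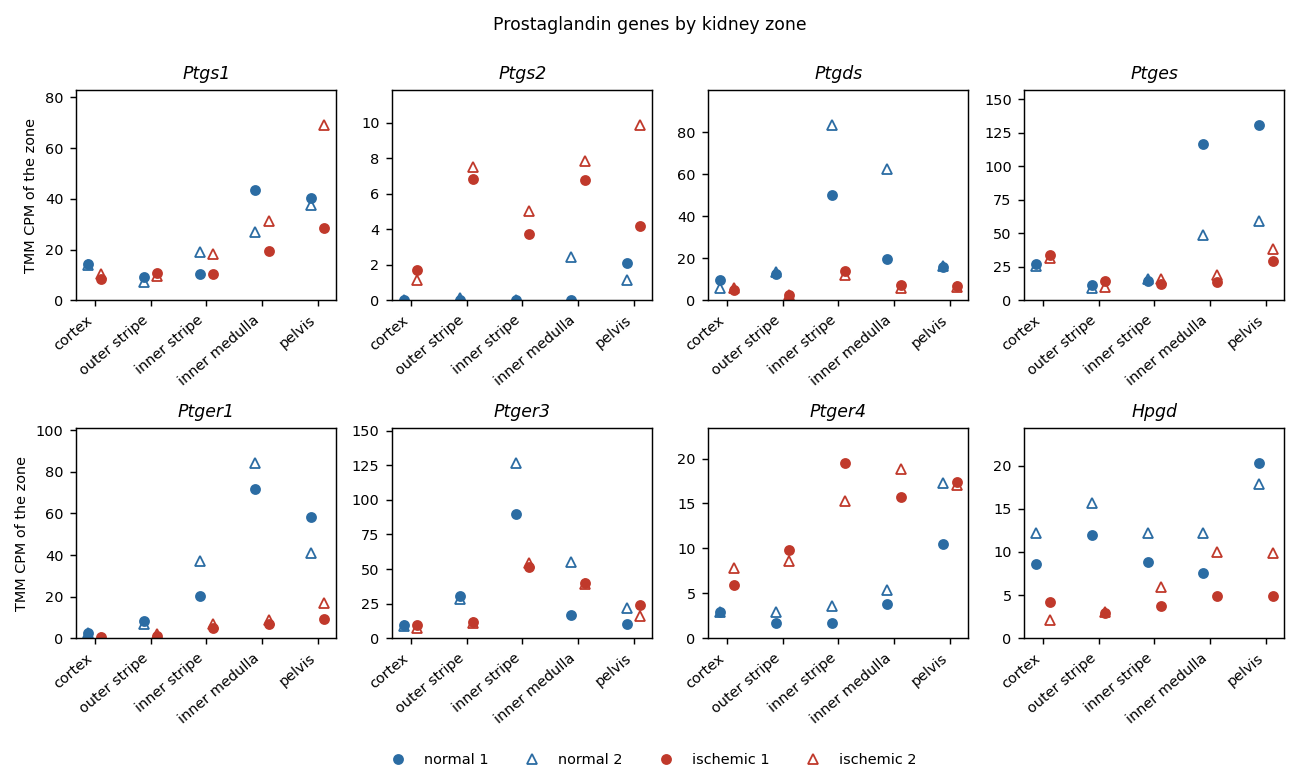
TMM CPM of each prostaglandin gene (y axis, from 0, scaled per gene) in the 5 zones (x axis). Blue marks are normal and red marks ischemic sections, with circles for section 1 and open triangles for section 2. Ptger1 falls from 71.6 and 84.1 CPM to 7.06 and 8.65 CPM in the inner medulla, and Ptger4 rises from 1.67 and 3.60 CPM to 19.5 and 15.3 CPM in the inner stripe.

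Ptger1 encodes the EP1 receptor, which couples to calcium signals. Of the 7 genes tested between normal zones it had the largest log2 difference, rising from 2.40 and 2.76 CPM in the cortex through 8.32 and 6.69 CPM in the outer stripe and 20.3 and 37.4 CPM in the inner stripe to 71.6 and 84.1 CPM in the inner medulla. Relative to the cortex these zones were higher by 1.56 ± 0.30 (adjusted p = 0.000538), 3.40 ± 0.30 (adjusted p = 4.13e-08) and 4.92 ± 0.29 (adjusted p = 3.92e-10) on the log2 scale, and the last is a 30.3-fold difference. In the normal sections the spots richest in principal cell genes had 32.5 and 32.3 times the Ptger1 CPM of the other spots. No Ptger1 count was found in the normal spots richest in proximal tubule genes.

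In the ischemic sections Ptger1 fell in whole sections from 10.1 and 14.8 CPM to 2.41 and 3.77 CPM, a 4.03-fold difference (−2.01 ± 0.25 on the log2 scale, adjusted p = 0.000117). The fall was present in each zone. It amounted to −2.19 ± 0.60 in the cortex (adjusted p = 0.00237), −2.15 ± 0.39 in the outer stripe (adjusted p = 4.67e-05), −2.25 ± 0.34 in the inner stripe (adjusted p = 1.30e-05) and −3.32 ± 0.31 in the inner medulla (adjusted p = 1.10e-07), where the ischemic sections had 7.06 and 8.65 CPM. The inner medulla value was −2.46 with zones from the spot alone, and passed. Cortex values were low, at 0.687 and 0.348 CPM after ischemia, and that call was lost without ischemic section 2 (−1.86, adjusted p = 0.0513). The gradient itself remained in the ischemic sections, with 4.82 and 6.68 CPM in the inner stripe and 1.29 and 2.15 CPM in the outer stripe.

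The principal cell genes moved much less than Ptger1. Of these 6 genes, 2 were lower and none higher in whole ischemic sections, and their median log2 difference was −0.39. Per 1000 counts of these genes, Ptger1 had 14.6 and 17.7 counts when normal and 4.93 and 5.91 when ischemic. In the inner medulla the ratios were 18.3 and 20.7 against 7.44 and 5.56. The sums are mostly Aqp2 and Fxyd4, but against each of the 6 genes alone Ptger1 was also lower in both ischemic sections than in both normal sections, in whole sections and in the inner medulla. In the inner stripe this held for 5 of the 6, and the ratio to Hsd11b2 overlapped. Spots richest in urothelial genes also had 5.80 to 14.6 times the Ptger1 CPM of the other spots over the 4 sections. The 6 urothelial genes had a median log2 difference of −3.17 in whole sections, 5 called lower where 29.7% of all genes were. The part of principal and urothelial cells in the Ptger1 fall was not tested.

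Ptger1 lies at chr8:83666678-83672753 on the plus strand (GENCODE annotation of GRCm38). The sources used here do not state whether the counting used strand. Whether reads of a gene on the opposite strand were kept apart is therefore not known here, which limits the values of Ptger1 and Ptger4.

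Ptger3 encodes the EP3 receptor, which lowers cyclic AMP and is known from the thick ascending limb and collecting duct. The normal inner stripe had 89.8 and 126 CPM, against 30.6 and 28.3 CPM in the outer stripe and 10.0 and 9.13 CPM in the cortex. The log2 differences from the cortex were 3.44 ± 0.22 for the inner stripe (adjusted p = 7.68e-10) and 1.61 ± 0.22 for the outer stripe (adjusted p = 1.60e-05). The inner medulla, with 17.0 and 55.3 CPM, was higher by 2.01 ± 0.28 (adjusted p = 2.49e-05), a call lost without normal section 2 (0.74, adjusted p = 0.163). Spots richest in thick ascending limb genes had 13.5 and 11.8 times the Ptger3 CPM of the other spots in the normal sections, and 3.99 and 3.47 times in the ischemic sections.

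Whole section Ptger3 was 24.2 and 27.4 CPM in the normal sections and 19.2 and 19.5 CPM in the ischemic sections. The log2 difference of −0.41 ± 0.10 passed (adjusted p = 0.00602), but not without ischemic section 1 (adjusted p = 0.0796) or ischemic section 2 (adjusted p = 0.0647), and it was 0.15 without spots near counts of the adipocyte genes. By zone the fall was −1.34 ± 0.27 in the outer stripe, to 12.1 and 11.1 CPM (adjusted p = 0.000274), and −1.01 ± 0.24 in the inner stripe, to 51.5 and 54.6 CPM (adjusted p = 0.00236). The inner stripe call was lost without ischemic section 1 (adjusted p = 0.109) or 2 (adjusted p = 0.0832). The cortex, with 9.71 and 7.20 CPM, differed by −0.17 ± 0.30, and the inner medulla, with 39.9 and 39.3 CPM, by −0.02 ± 0.31. Without normal section 2 the inner medulla difference was 1.24 and passed (adjusted p = 0.00308).

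The outer stripe fell more than the cortex, by −1.17 ± 0.34 (adjusted p = 0.0203). This difference did not pass without ischemic section 1 (adjusted p = 0.380), without ischemic section 2 (adjusted p = 0.177) or without the section block (adjusted p = 0.0626). Against 4 of the 5 thick ascending limb genes alone, Slc12a1, Cldn10, Cldn16 and Kcnj1, Ptger3 was higher in both ischemic sections than in both normal sections, in whole sections and in the inner stripe. Per 1000 Kcnj1 counts it went from 180 and 203 counts to 364 and 378 in whole sections. Per 1000 Umod counts the normal sections had 6.56 and 7.91 Ptger3 counts and the ischemic sections 7.69 and 7.67, which overlap.

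Ptger4 encodes the EP4 receptor, which raises cyclic AMP. Whole normal sections had 2.44 and 3.77 CPM and whole ischemic sections 10.0 and 10.5 CPM, a 3.35-fold difference (1.74 ± 0.20 on the log2 scale, adjusted p = 8.12e-05). It did not pass (0.73, adjusted p = 0.132) when spots near counts of the adipocyte genes, 62.6% to 83.8% of the spots of a section, were left out. The share of spots with at least 1 Ptger4 UMI was 3.33% (95% interval 2.67 to 4.09) and 3.58% (2.91 to 4.35) in the normal sections and 12.8% (11.5 to 14.2) and 10.5% (9.34 to 11.7) in the ischemic sections. After thinning to 2000 UMIs the shares were 0.662% and 0.908% against 2.52% and 2.59%.

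The rise was found in each zone but the pelvis. The log2 difference was 1.18 ± 0.26 in the cortex (adjusted p = 0.00122), 2.03 ± 0.29 in the outer stripe (adjusted p = 5.13e-06), 2.87 ± 0.42 in the inner stripe (adjusted p = 2.95e-06) and 1.85 ± 0.43 in the inner medulla (adjusted p = 0.000862). The cortex call was lost without ischemic section 2 (1.00, adjusted p = 0.0899). In the inner stripe the level went from 1.67 and 3.60 CPM to 19.5 and 15.3 CPM, a log2 difference of 2.27 without normal section 1, whereas in the cortex it went from 2.99 and 2.95 CPM to 5.93 and 7.78 CPM. The pelvis had 10.5 and 17.3 CPM in the normal and 17.4 and 17.1 CPM in the ischemic sections (adjusted p = 0.577).

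The inner stripe rose more than the cortex, by 1.67 ± 0.46 (adjusted p = 0.0123), but not past the threshold without normal section 1 (1.17, adjusted p = 0.213) or ischemic section 1 (1.27, adjusted p = 0.251). Within the ischemic sections the inner stripe and the inner medulla exceeded the cortex by 1.36 ± 0.21 and 1.35 ± 0.21 (adjusted p = 2.62e-05 and 3.41e-05). The first of these did not pass without ischemic section 1 (0.96, adjusted p = 0.0628), and the outer stripe, at 0.45 ± 0.20, passed only without normal section 1 (adjusted p = 0.0483) or normal section 2 (adjusted p = 0.0275).

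Spots richest in fibroblast genes had 5.76 and 5.15 times the Ptger4 CPM of the other spots in the normal sections and 2.58 and 1.99 times in the ischemic sections. For spots richest in endothelial genes it was 2.27 and 3.74 times and 2.59 and 2.12 times. Such ratios were not particular to these 2 lists. Over the 4 sections they were 1.77 to 7.31 for urothelial, 1.63 to 5.27 for mesothelial and 1.69 to 5.19 for macrophage genes, but 0.273 to 0.525 for proximal tubule genes. The 6 fibroblast genes summed to 158 and 232 CPM in the normal inner stripe and to 772 and 681 CPM in the ischemic inner stripe. There Col1a1, Col1a2, Col3a1 and Pdgfra were higher in both ischemic sections, Dcn was lower and Lum overlapped. In whole sections the same 4 rose and Dcn and Lum fell, by 2.44 and 1.98 on the log2 scale. Their part in the Ptger4 rise was not tested. Of its 6648 exonic bases, Ptger4 shares 82 with Ttc33 on the other strand, which differed by −0.24 in whole sections. It shares 1015 with the pseudogene Gm15937, also on the other strand, which was not among the genes counted. The part of these overlaps in the Ptger4 values was not tested.

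Hpgd, the breakdown enzyme gene, was spread across the normal zones, with 8.57 and 12.2 CPM in the cortex, 11.9 and 15.6 CPM in the outer stripe, 8.84 and 12.2 CPM in the inner stripe and 7.53 and 12.2 CPM in the inner medulla. None of these zones differed from the cortex past the threshold. In whole sections it fell from 9.08 and 12.2 CPM to 3.53 and 4.26 CPM, by 1.45 on the log2 scale (SE 0.19, adjusted p = 0.000166), a 2.73-fold difference.

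The Hpgd fall was −1.64 ± 0.32 in the cortex (adjusted p = 0.000355; −2.27 without ischemic section 1) and −2.19 ± 0.34 in the outer stripe (adjusted p = 1.14e-05), where the ischemic sections had 2.88 and 3.10 CPM. In the inner stripe it was −1.07 ± 0.41 (adjusted p = 0.0401), a call lost without ischemic section 1 (−0.76, adjusted p = 0.198) or normal section 2 (−0.88, adjusted p = 0.0784). The inner medulla, at 4.89 and 9.96 CPM, did not pass (−0.49 ± 0.45, adjusted p = 0.421), and the pelvis did (−1.35 ± 0.50, adjusted p = 0.0439). The test of whether the inner medulla changed differently from the cortex did not pass (adjusted p = 0.128). The 5 proximal tubule genes, which are at home in the cortex and outer stripe, fell in whole sections by a median of 2.31 on the log2 scale. Spots richest in these genes did not stand out for Hpgd, with ratios of 1.08 and 0.86 in the normal and 1.51 and 1.13 in the ischemic sections. Over the 4 sections the Hpgd ratios were 1.34 to 5.41 for endothelial and 1.80 to 3.31 for urothelial genes. They were also above 1 in all 4 sections for fibroblast, macrophage and mesothelial genes, and lay on both sides of 1 for the other lists. The part of these cells in the Hpgd fall was not tested.

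**Figure D4:**
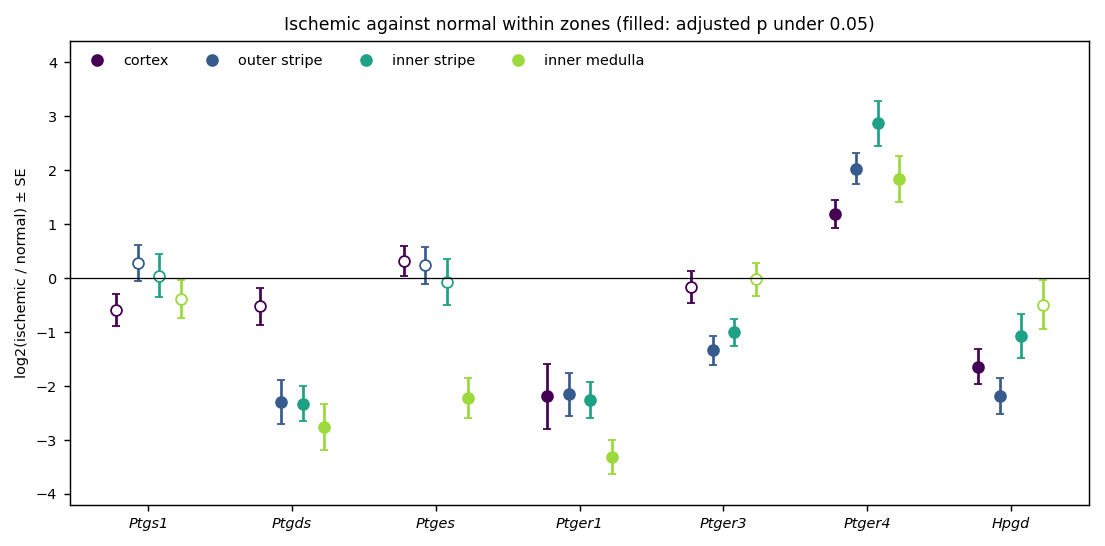
Log2 difference of ischemic against normal sections (y axis) with its standard error, for 7 prostaglandin genes (x axis) in 4 zones (colours); filled points have an adjusted p under 0.05. Ptgs2 is left out because it had no normal counts in 2 of the zones. Ptger1 is lower and Ptger4 higher in each of the 4 zones, whereas Ptges is lower in the inner medulla (−2.23) and not called in the other 3.

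By zone, 4 of 8 genes were called in the cortex, where 40.5% of all genes were called. In the outer stripe 6 of 8 were called (57.8% of all genes), in the inner stripe 6 of 8 (45.9%), in the inner medulla 5 of 8 (38%) and in the pelvis 4 of 8 (25.7%). Ptges was called in the inner medulla and the pelvis, and Hpgd in each zone but the inner medulla. A call in 1 zone and not in another does not show that the zones differ, and the tests of that difference are given with each gene. Without ischemic section 2 the cortex count was 2, as the calls of Ptger1 and Ptger4 were lost.

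Across the 20 section and zone sums, the genes whose log2(CPM + 1) followed each prostaglandin gene most closely were found by Pearson correlation, as a description over sums that share sections and depth. Ptger1 was followed most closely by Avpr2, the vasopressin receptor gene of the collecting duct (r = 0.970), then Gstm2 (0.963) and Eps8l1 (0.961). Ptges was followed by Trf, Btbd11 and Ppp1r3c (0.934 to 0.907), and Ptgs1 by Fcgbp, Arhgap8 and 9130008F23Rik (0.936 to 0.919). For Ptgds they were Cd59a, Rap1gap and Sept1 (0.946 to 0.933), and for Ptger3 Defb42, Gp2 and Tenm2 (0.948 to 0.939). Ptgs2 was followed by Smox, Mcm3 and Ptbp1 (0.956 to 0.942) and Ptger4 by Ccnl1, Itpr3 and Cd14 (0.958 to 0.955). Hpgd had the lowest values, with Smim22, Numa1 and Nipal3 (0.876 to 0.869). Among the 8 genes themselves the highest correlation was that of Ptgs2 with Ptger4 (0.84), followed by Ptgds with Ptger1 (0.75) and with Ptger3 (0.72), and Ptgs1 with Ptges (0.71).

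The rest of the prostanoid pathway was followed with 29 further genes, of which 24 could be tested in whole sections. Of these 24, 10 were higher, 11 lower and 3 not called (Pla2g4b, Ptgis and Ptgfr), and their median log2 difference was −0.10. Of all genes tested, 31% were called higher and 29.7% lower, shares that apply to the counts of each group below. The genes with too few counts to test were Pla2g4f, Pla2g10, Ptger2, Ptgdr and Ptgdr2. Of these, Ptger2, the EP2 receptor gene, had 2 and 8 UMIs in the normal and 8 and 2 in the ischemic sections, and the prostaglandin D2 receptor genes Ptgdr and Ptgdr2 had at most 1 UMI in any section.

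Among the genes for arachidonic acid release, 3 of 8 tested were higher and 4 lower. Pla2g4a, the cytosolic phospholipase A2 that supplies the cyclooxygenases, rose from 3.85 and 6.30 CPM to 10.0 and 10.5 CPM (1.04 ± 0.21, adjusted p = 0.00230). Pla2g2e, a secreted phospholipase gene, had no UMI in either normal section and 44 and 39 UMIs in the ischemic sections, at least 35.0-fold higher against the 3 counts that a pooled total of 0 allows. Pla2g12a rose by 0.36 ± 0.11. The secreted phospholipase genes Pla2g5 and Pla2g2d fell by 1.05 and 1.82 on the log2 scale, and Plaat3 and Pla2g6 fell by 0.70 and 0.48.

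Among the 8 other terminal synthases, 3 were higher and 4 lower. Hpgds, the hematopoietic prostaglandin D synthase gene, rose from 0.352 and 0.616 CPM to 2.27 and 1.85 CPM (2.12 ± 0.35, adjusted p = 0.000541), opposite to Ptgds, the other prostaglandin D synthase gene. Cbr1, a carbonyl reductase that acts on prostaglandin E2, rose from 77.0 and 74.1 CPM to 248 and 224 CPM (1.64 ± 0.12, adjusted p = 4.78e-06). The cytosolic prostaglandin E synthase gene Ptges3 rose by 0.72 ± 0.10 and Ptges2 fell by 0.35 on the log2 scale. The thromboxane synthase gene Tbxas1 fell from 10.0 and 12.0 CPM to 4.77 and 3.63 CPM (−1.37 ± 0.17, adjusted p = 0.000147), and Prxl2b and Akr1b3, both linked to prostaglandin F synthesis, fell by 1.21 and 0.93 on the log2 scale. Akr1b3 was also one of the inner medulla markers.

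Of the other receptors, Ptgir, the prostacyclin receptor gene, rose from 1.41 and 1.23 CPM to 2.50 and 2.23 CPM (0.84 ± 0.24, adjusted p = 0.0135). The thromboxane receptor gene Tbxa2r fell from 8.21 and 8.80 CPM to 5.48 and 5.51 CPM (−0.63 ± 0.14, adjusted p = 0.00391). For transport and breakdown all 5 genes were called, where 60.6% of all genes were. Slco2a1, the prostaglandin uptake transporter gene, rose from 15.7 and 13.8 CPM to 55.3 and 58.5 CPM (1.94 ± 0.10, adjusted p = 8.32e-07), and Abcc4, which exports prostaglandins, rose by 1.14 ± 0.10. Cbr3 had the largest rise of the tested pathway genes with counts in both conditions, from 1.11 and 1.63 CPM to 27.2 and 26.9 CPM (4.33 ± 0.18, adjusted p = 1.50e-07). The prostaglandin reductase genes Ptgr2 and Ptgr1 fell by 1.21 and 0.40 on the log2 scale.

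**Figure D5:**
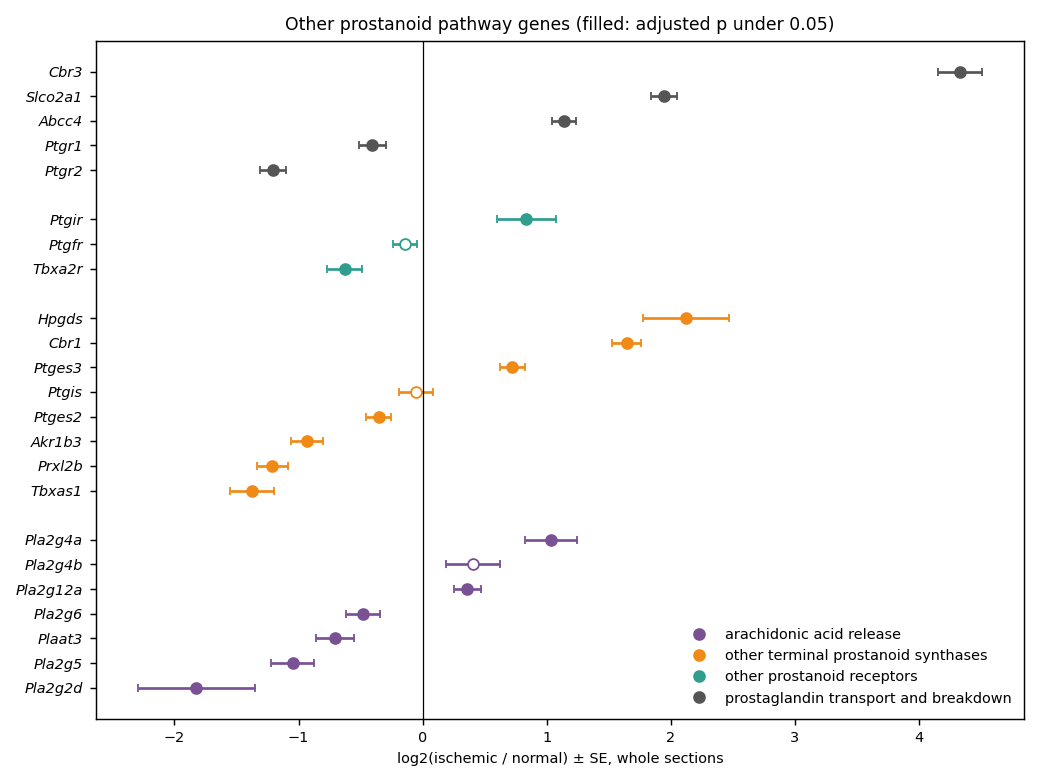
Log2 difference of ischemic against normal whole sections with its standard error (x axis) for the other prostanoid pathway genes tested (y axis), grouped and coloured by role; filled points have an adjusted p under 0.05. Pla2g2e is left out because it had no normal counts. Cbr3 (4.33), Hpgds (2.12) and Slco2a1 (1.94) lie farthest to the right, and Pla2g2d (−1.82) and Tbxas1 (−1.37) farthest to the left.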

How the data were processed

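Raw UMI counts per gene and spot were deposited by the authors for 4 sections, made with Space Ranger 1.3.0 on mm10 per the labels and file headers, without normalization. Groups followed the sample labels. The genes and lists were chosen with earlier results of these data known. Named genes were the 8 prostaglandin genes, each pathway gene passing the whole-section test, Havcr1 and Lcn2, the 3 genes most correlated with each, and marker genes where a result turned on them. Counts were summed by section and by zone within a section (20 spots or more) and tested with edgeR 4.0.16 in R 4.3.3 (TMM, filterByExpr, quasi-likelihood, Benjamini-Hochberg at 0.05). Zones came from lists of 3 to 6 markers, averaged as log2(CPM + 1) over a spot and its neighbours and standardised per section; pelvis needed 10 counts and the top 5%. Contrasts between zones had the section as a block. Tests of ischemia within zones, and with equal weight per zone, had no section term and shared 1 fit over all section and zone sums. Ptgs2, under 20 normal counts, was not tested between normal zones. Standard errors used the fitted weights and the posterior quasi-likelihood dispersion. Section pairs of a condition differed beyond sampling noise, at a chi-square per degree of freedom of 41.9 and 7.32. On simulated counts for whole sections (15305 genes), 84 of 100 genes changed by 1 log2 unit and 96 of 100 changed by 2 were recovered, with 6 false calls. For the inner medulla (13795 genes) it was 43 and 80 of 100, with 3 false calls, and for its change against the cortex 40 and 82 of 100, with 6. The simulated sums were drawn independently of each other and few genes were changed. They therefore cannot show the false call rate in these sections, where many genes differed and zones share a section. Alternatives were DESeq2 1.42.0, its size factors, no filter, a replicate block, other zone assignments, and leaving out sections, spots with adipocyte genes or the pelvis. Values of 1 gene on the strand opposite to a prostaglandin gene are not reported here.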

Additional observations from a re-analysis of the deposited data

Results flagged for a closer look

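Of the tests of whether a zone changed more or less with ischemia than the cortex, 6 passed for prostaglandin genes, and each is a difference of 2 log2 differences. Ptgds fell more than in the cortex in the outer stripe (−1.75, adjusted p = 0.0182), the inner stripe (−1.76, adjusted p = 0.0104) and the inner medulla (−2.17, adjusted p = 0.00844). Ptges fell more in the inner medulla (−2.55, adjusted p = 8.97e-05), in spots where each of the 6 urothelial genes and 3 of the 6 principal cell genes were also lower in both ischemic sections, while the other 3 overlapped. Ptger3 fell more in the outer stripe (−1.17, adjusted p = 0.0203), and Ptger4 rose more in the inner stripe (1.67, adjusted p = 0.0123), where 4 of the 6 fibroblast genes were also higher, with Dcn lower and Lum overlapping. Of the 6, the Ptges difference alone passed whichever section was left out. What else moved with each zone is given beside the values, and its part was not tested.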

How the results depend on the processing

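DESeq2, its size factors, no filter and a replicate block kept the direction and the side of the threshold of all 8 prostaglandin genes in whole sections. The labels give no link between same-numbered sections beyond the number. Over 10410 genes their deviations from the condition means correlated at 0.277, with only 2 pairs of sections. The replicate block gave 10089 called genes against 9279 and left the count of prostaglandin genes at 6 in whole sections, 4 in the cortex, 6 in each stripe and 5 in the inner medulla. Leaving out spots near counts of the adipocyte list moved the 9279 genes to 3978, turned Ptger3 to 0.15 and Ptges to 0.065, and ended the call of Ptger4 (0.73). The list's Fabp4 and Cfd made this remove 62.6% to 83.8% of the spots. An alternative chosen after seeing the data, leaving out spots near Adipoq, Plin1 and Lep, changed no call. Ptgs1 in whole sections turned to −0.063 with equal weight per zone and to −0.010 without pelvis spots (chosen after seeing the data). With zones from the spot alone, Ptger3 in the cortex turned to 0.25 and Ptges in the inner stripe to 0.089, and with Cryab among the markers Ptger3 in the inner medulla turned to 0.20. None of these reversed values was called. Leaving out each section gave −0.26 to 0.35 for Ptgs1 in whole sections, −0.43 to 0.43 for Ptgs1 in the inner stripe, −0.40 to 0.025 for Ptger3 in the cortex, −0.43 to 1.24 for Ptger3 in the inner medulla, −0.25 to 0.10 for Ptges in the inner stripe and −0.014 to 0.45 for Ptges in the outer stripe. It gave 2 to 6 called genes in the cortex (4 with all sections), and for the change against the cortex 0 to 4 in the outer stripe, 0 to 3 in the inner stripe and 1 to 2 in the inner medulla (2 each with all sections). The outer stripe count was 1 without the section block and 4 with zones from the spot alone. Fewer sections also leave fewer degrees of freedom; otherwise the cause was not tested. With 11 normal Ptgs2 counts, depth limits its zone ratios.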
